A study of Thermothelomyces thermophilus with 6 samples.

Results

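A set of 106 genes of the thermophilic fungus Myceliophthora thermophila was examined, out of 9110 in the count table. These genes were expressed in mycelium without a carbon source and at least 8-fold lower on both glucose and starch. They were chosen on mean CPM (reads of the gene per 1000000 counted reads): at least 10 CPM without carbon, a ratio of at least 8 over each sugar, and a difference of less than 2-fold between the sugars. A list of 19 other genes was to be left out, but none of these met the value conditions, so none was removed. Because the choice used all 6 libraries, the differences between media of these genes are given as descriptions. Test calls and standard errors printed for them come from a fit over the whole table and are no independent evidence.

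All libraries came from strain ATCC 42464, with 2 libraries for each of 3 media. Per the labels, an 18 h preculture at 45 °C on 2% glucose in Vogel's salts was washed in the same salts, and the mycelium then spent 4 h in the test medium. The test media were one with no carbon source, one with glucose and one with starch at 2%. The glucose concentration in the test medium is not given in the sources used here, and no library was taken before the move. A higher value without carbon can therefore be a rise during starvation or a fall in the sugar media after the move, and these cannot be told apart. The labels do not say whether replicates were separate cultures.

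Filamentous fungi that run out of carbon slow their growth, recycle their own proteins and organelles through proteases and autophagy, and release hydrolases that can reach other food sources. While glucose is at hand, carbon catabolite repression holds down many genes for the use of other carbon sources, through the zinc-finger repressor called CreA in Aspergillus and CRE-1 in Neurospora. Starch is cut outside the cell by amylases and glucoamylase, and the glucose and maltose released are taken up. The 106 genes are known here only by their IDs: 105 matched a locus tag in RefSeq, none of them carries a symbol of its own, and no product description was used. No role is assigned to any of them.

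Depth ranged from 17726204 to 23635336 counted reads, so that 3 reads correspond to 0.127 to 0.169 CPM. Replicate libraries lay close together for these genes without carbon, with a median ratio of the higher to the lower library of 1.05, against 1.04 for all 6767 genes with at least 10 CPM without carbon. On the sugars, where the genes had few reads, the median ratio was 1.13 on glucose and 1.11 on starch, against 1.03 in both media for those 6767 genes. Scaling affected comparisons across media. With library totals alone the median log2 fold change of all tested genes was -0.27 for glucose against no carbon and 0.24 for starch against glucose, whereas TMM scaling (edgeR's trimmed mean factors) put these medians at -0.02 and 0.04.

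The conditions cut the table down in steps. Among the 6767 genes that reached 10 CPM without carbon, 230 were at least 8-fold above glucose, 152 at least 8-fold above starch and 136 above both. The 106 genes made up 77.9% of these 136. In another 21 genes the starch mean was at least 2 times the glucose mean, and in 9 genes the glucose mean was at least 2 times the starch mean. On the starch side there was no gap at the limit, since Mycth_2309543, at a starch to glucose ratio of 1.99, lay just inside and Mycth_2311483, at 2.11, just outside. On the glucose side a gap was present: the glucose to starch ratio was 1.64 in Mycth_2310773, the highest in the set, and 2.56 in Mycth_115957, the next gene outside. That outer value rests on few reads, with 26 and 19 on glucose and 8 and 11 on starch. Only 9 genes lay beyond the window on this side, and 8 of them were neighbours in gene order.

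**Figure D1:**
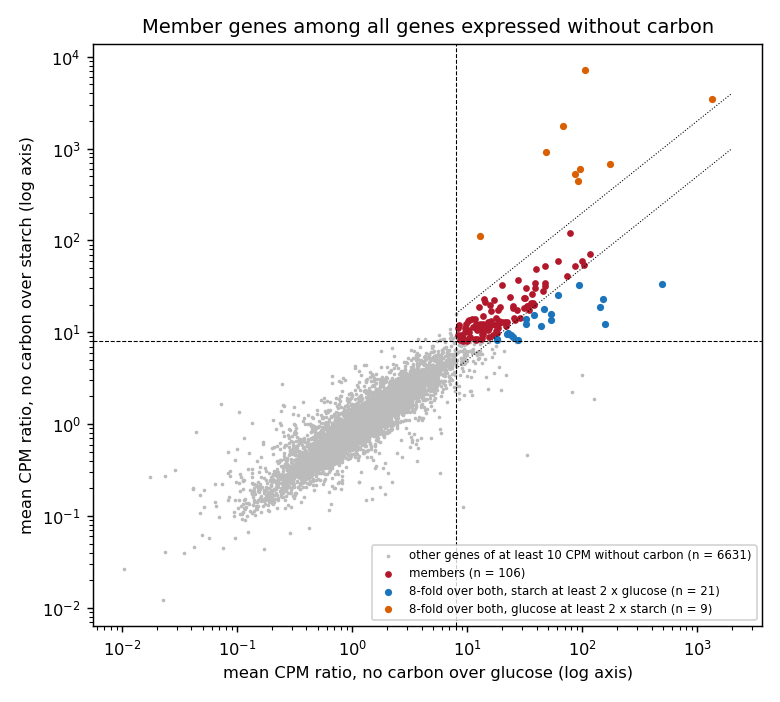
Mean CPM without carbon over mean CPM on glucose (x axis) and on starch (y axis), both log axes, for genes with at least 10 CPM without carbon. Dashed lines mark 8-fold and dotted lines the 2-fold window between the sugars; the 106 members sit in the corner between them, 21 genes lie below the window and 9 above it.

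At the other limits the members also ran on without a break. Mycth_2052657 entered at 10.1 CPM without carbon, and Mycth_2128968 stayed out at 9.61 CPM. Mycth_2109705 entered at 8.23 times its glucose level, and Mycth_2299910 stayed out at 7.97. Mycth_2307568 entered at 8.01 times its starch level, and Mycth_2305732 stayed out at 7.93. The exact 95% counting interval of the read ratio included 8 for 11 members against glucose and for 13 against starch, and intervals of this kind cover counting error only.

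Together the 106 genes took 1.77% and 1.73% of all reads in the no carbon libraries. On glucose they took 0.0973% and 0.0968%, and on starch 0.12% and 0.121%. The summed CPM was 18-fold higher without carbon than on glucose and 14.5-fold higher than on starch. The shares in replicate libraries differed far less than those in different media. A smaller share of reads can also reflect a change in the reads of all other genes, which relative counts do not separate.

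The genes were lower on sugar, and most stayed at or above 1 CPM there. Mean CPM ran from 10.1 to 2725 without carbon with a median of 50.2, from 0.292 to 153 on glucose with a median of 2.63, and from 0.307 to 263 on starch with a median of 3.68. On glucose 22 members (20.8%) were under 1 CPM and on starch 17 (16%), against 11.6% and 10.5% of all genes. Unlike the members, all genes had no minimum level without carbon, and 7.29% of them were under 1 CPM in that medium. At least 10 CPM was kept by 20 members on glucose and by 26 on starch. No member was without reads in any library, and the lowest count was 4 reads in 1 glucose library. For comparison, the median gene of the whole table had 35.6 CPM without carbon, 34.4 on glucose and 41.5 on starch. In each no carbon library 64 members lay above the median gene of that library, against 6 in each glucose library and 5 in each starch library. The word silenced therefore describes a minority, and the genes are called here by their rule: at least 8-fold lower on both sugars.

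**Figure D2:**
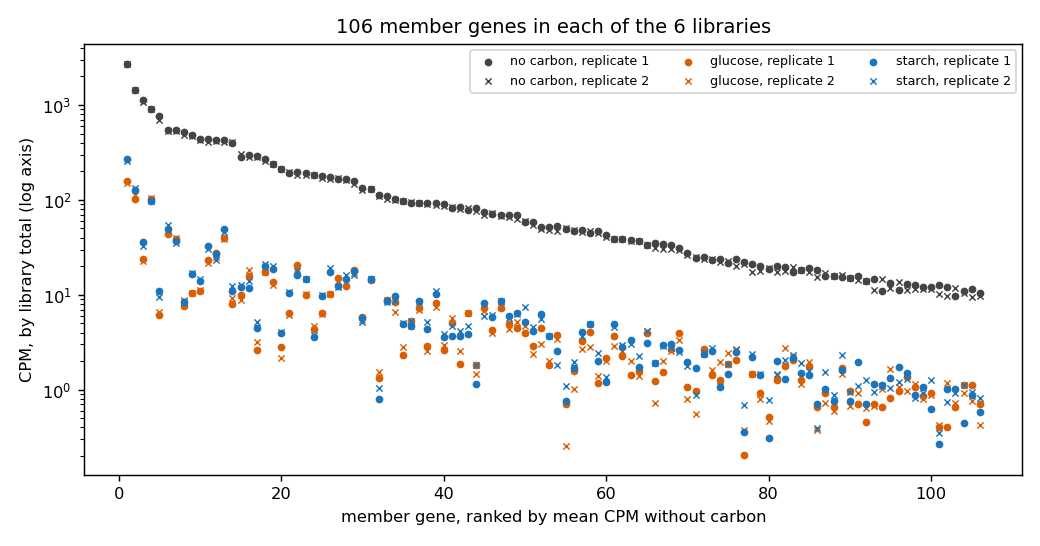
CPM (log axis) of the 106 genes in all 6 libraries, ordered by mean CPM without carbon; circles are replicate 1 and crosses replicate 2. The no carbon points stand above the sugar points for every gene, and replicate points spread most where the sugar values fall below 1 CPM.

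In all 106 genes each sugar library lay below both no carbon libraries, an order that 45.2% of all tested genes showed. The edgeR quasi-likelihood test, fitted on all 8718 tested genes with Benjamini-Hochberg adjustment at 0.05, called all 106 lower on glucose, where it called 45.7% of all tested genes lower. It called all 106 lower on starch too, against 44.7% of all tested genes. These calls follow from the way the genes were chosen. The median log2 fold change of the members in that fit was -3.74 for glucose and -3.64 for starch against no carbon, with ranges of -6.60 to -2.77 and -6.85 to -2.95. The medians over all tested genes were -0.02 and 0.01. The median SE of the members, computed as the absolute log2 change over the root of its F statistic, was 0.113 and 0.105. For all tested genes it was 0.066 and 0.0638. This quantity depends on the size of the change and can be too small where a large change rests on few reads. The medians of the members and of all genes are therefore not like for like.

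The most abundant member was Mycth_78828, a gene of 828 bases. It had 2735 and 2714 CPM without carbon, 156.7 and 149.7 CPM on glucose, and 268.8 and 257.8 CPM on starch. All 3 media were apart in this gene, with starch between glucose and no carbon. Per length it reached 3291 RPKM (CPM divided by gene length in kilobases) without carbon, rank 25 of 9110 genes, and it still ranked 658 on glucose and 394 on starch. Its log2 fold change against no carbon was -3.91 (SE 0.03) on glucose and -3.33 (SE 0.029) on starch. The member with the highest level thus had a ratio of only 10.4 over its starch mean.

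The next members by level were Mycth_2307682, Mycth_112815 and Mycth_2095534. Mycth_2307682 had 1448 and 1423 CPM without carbon, 103.5 and 112.9 CPM on glucose and 126.8 and 134.6 CPM on starch. Mycth_112815 had 1126 and 1076 CPM without carbon, 23.7 and 22.5 CPM on glucose and 36.1 and 32.5 CPM on starch. The latter was reduced further than the former, by 47.7-fold on glucose and 32.1-fold on starch, against 13.3-fold and 11-fold. Mycth_2095534, with 911.8 and 908.6 CPM without carbon, 102.3 and 104.3 CPM on glucose and 96.5 and 97.5 CPM on starch, lay near the 8-fold limit. By RPKM without carbon it ranked second among the members, at 981.9 RPKM and rank 117 of all genes.

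Below these, Mycth_2296064 had the largest ratio over glucose. It had 759.9 and 702.2 CPM without carbon, 6.07 and 6.56 CPM on glucose, and 10.9 and 9.58 CPM on starch. This ratio was 115.7-fold, and that over starch was 71.5-fold. Per length it moved from rank 324 without carbon to 7246 on glucose and 7041 on starch, out of 9110. By contrast, Mycth_2294358 and Mycth_2307626 had similar levels without carbon but much smaller ratios. Mycth_2294358 had 542.3 and 538.7 CPM without carbon, 43.5 and 46.4 on glucose and, on starch, 48.9 and 54.2. Mycth_2307626 had 547.5 and 532.4, 38.8 and 39.3, and 36.8 and 34.9 CPM in the same order. In both genes the sugar libraries stayed above the median gene of the library on glucose, and on starch this held for Mycth_2294358 alone.

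The remaining members with the highest CPM without carbon were Mycth_108836, Mycth_2306248 and Mycth_57502. Mycth_108836 had 516.5 and 480.4 CPM without carbon, 7.55 and 8.72 on glucose and, on starch, 8.34 and 8.49, so that the sugar libraries overlapped. Mycth_2306248 had 485.9 and 470.8, 10.5 and 10.4, and 16.7 and 17 CPM. Its span overlaps that of a neighbouring gene in the RefSeq assembly, and without a stated strand setting reads of the pair cannot be assigned with certainty. Mycth_57502 had 436.4 and 425.6, 11.1 and 11.2, and 14.1 and 14.6 CPM. Short genes joined the list when levels were set per length: Mycth_2309591 (590 bases) at 498.6 RPKM, Mycth_2111519 (816 bases) at 496.9 RPKM and Mycth_2307660 (1061 bases) at 398.5 RPKM without carbon. Together the 10 members with the highest CPM held 53.7% and 53.6% of the members' reads without carbon, and 51.8% to 55.1% in the sugar libraries.

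The ratio to the higher of the sugar means had a median of 12.4 and quartiles of 10.2 and 19.2. It reached 16 in 35 members, 32 in 12 and 64 in 2. The highest value, 77.5, belonged to Mycth_103797, which had 112 and 108.8 CPM without carbon, 1.33 and 1.52 CPM on glucose and 0.799 and 1.05 CPM on starch. It was the member with the largest ratio over starch, 119.8-fold, and its starch libraries were below its glucose libraries. Mycth_104726 had 290.3 and 285 CPM without carbon, 2.6 and 3.22 on glucose and, on starch, 4.44 and 5.18. Mycth_116881 had 213.6 and 211.7, 2.81 and 2.16, and 3.99 and 4.05 CPM. In both of these the starch libraries lay above the glucose libraries.

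At lower levels the largest ratios rested on few reads. Mycth_78093 had 49.9 and 50.3 CPM without carbon, 0.715 and 0.254 CPM on glucose, and 0.754 and 1.09 CPM on starch. Its 20 reads on glucose, against 1980 without carbon, gave a read ratio of 108.2 with a 95% counting interval of 69.9 to 177.5. Mycth_2106582 had 22.4 and 21 CPM without carbon, 0.204 and 0.381 on glucose and, on starch, 0.355 and 0.696. With 13 reads on glucose its read ratio was 72.4, with an interval of 42.1 to 136.5. Mycth_2035386 had more reads and a similar reduction on both sugars, with 81.4 and 76.2 CPM without carbon, 1.84 and 1.48 on glucose and, on starch, 1.15 and 1.83. Level and ratio were only loosely related across the 106 genes (Spearman's rho 0.258, a description in which both quantities share the no carbon libraries).

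How alike the sugars were was examined next. By library totals the starch mean exceeded the glucose mean in 77 members and lay below it in 29, with a median ratio of 1.25, and the median over all genes was 1.18. Both starch libraries were above both glucose libraries in 62 members, where 62.8% of all tested genes showed this order. Both were below in 18 members, where 24% of all tested genes did so. In the other 26 the libraries of the sugars overlapped. The rule limited the starch to glucose ratio of the members by these same values, so nothing is read from the comparison with the whole table.

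With TMM scaling the members had a median log2 fold change from glucose to starch of 0.13, against 0.04 over all tested genes. The edgeR test called 27 members higher on starch and 19 lower (adjusted p under 0.05), while 36.1% and 32.5% of all tested genes were called in these directions. The other 60 members were not called, and over all tested genes 68.6% were called in either direction. The share of calls that were higher on starch depended on the scaling. It was 58.7% of the members' calls with TMM factors, against 52.6% of the calls over all tested genes. With library totals alone it was 81.4%, from 48 members higher and 11 lower, against 73.9% of the calls over all tested genes. In that setting 55.2% of all tested genes were called higher and 19.5% lower. Nothing is read from these counts, because the choice of the genes limited this difference. None of the 20 members with under 100 reads over the 4 sugar libraries was called. Calls were made for 16 of the 35 with 100 to 300 reads and for 30 of the 51 with more. The share called among all tested genes with like numbers of reads is not given here, so nothing is read from these counts either.

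**Figure D3:**
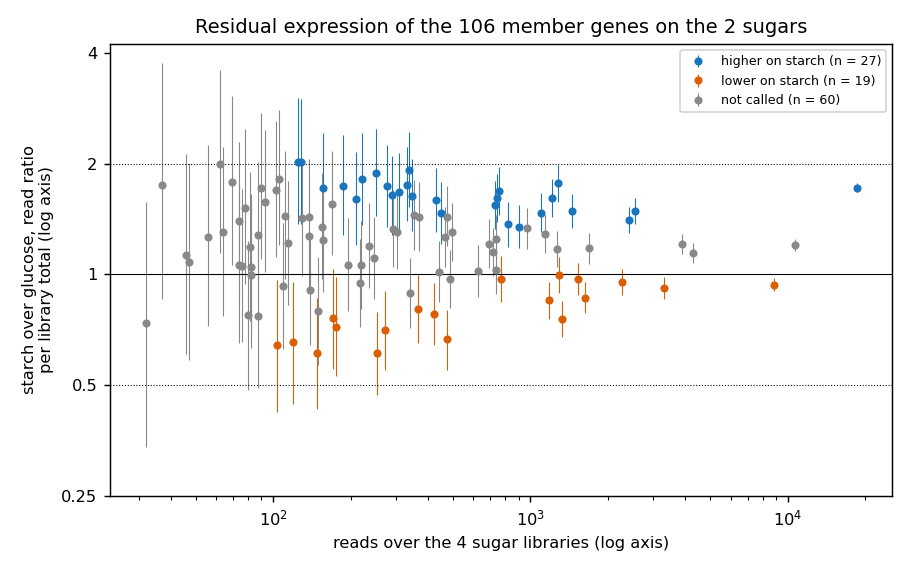
Starch over glucose read ratio per library total (log axis) against the reads of each gene over the 4 sugar libraries (log axis), with exact 95% counting intervals, coloured by the edgeR call under TMM scaling. Intervals narrow to the right, and 20 genes on the left, with under 100 reads, carry no call.

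Calls in both directions occurred among the most abundant members. Of those called higher on starch, Mycth_78828, whose values are given above, had a log2 fold change of 0.58 (SE 0.03), and Mycth_112815 one of 0.37 (SE 0.056). Mycth_2095534 and Mycth_2307626 were called lower, at -0.3 (SE 0.033) and -0.33 (SE 0.051). The median level without carbon was 98.3 CPM in members called higher and 110 CPM in those called lower. The largest starch to glucose ratios were those of Mycth_2309543, Mycth_103818, Mycth_2305442, Mycth_78093 and Mycth_58642. Mycth_2305442 had 2.3 and 2.84 CPM on glucose and 4.88 and 5.09 CPM on starch, with 98.1 and 98.4 CPM without carbon. Mycth_58642 had 1.84 and 2.03 on glucose, 3.68 and 3.66 on starch, and 52 and 48.5 without carbon. In these genes the starch libraries agreed within a few percent and stood apart from glucose. The rarest of the 5 on both sugars, Mycth_78093, was not called, at a log2 fold change of 0.78 (SE 0.406). It was called with library totals alone, at 0.99, without glucose replicate 1, at 1.63, and without starch replicate 1, at 1.02.

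Mycth_2309543 and Mycth_103818 lay at the limit of the window. Mycth_2309543 had 1.07 and 0.804 CPM on glucose, 1.95 and 1.79 on starch, and 27.5 and 26.3 without carbon. Mycth_103818 had 1.23 and 0.719 on glucose, 1.91 and 1.92 on starch, and 35.5 and 30.9 without carbon. Both had a log2 fold change of 0.80 between starch and glucose (SE 0.282 and 0.288), and both lost the call when glucose replicate 2 was left out, at 0.59 and 0.43. Mycth_2309543 lost it also without starch replicate 1, at 0.74. Over all members, the counting interval of the starch to glucose ratio included 2 in 31 genes and 0.5 in 7.

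In the opposite direction, the smallest starch to glucose ratios were those of Mycth_2310773, Mycth_94462, Mycth_103797, Mycth_85068 and Mycth_2312881. Mycth_2310773 had 3.78 and 3.39 CPM on glucose and 2.53 and 1.83 on starch, with 53.1 and 47.1 without carbon. Mycth_94462 had 2.14 and 2.03 on glucose, 1.2 and 1.35 on starch, and 42.9 and 40.4 without carbon. Mycth_85068 had 6.48 and 6.39 on glucose, 3.9 and 4.66 on starch, and 79 and 82.8 without carbon. Their starch libraries all lay below their glucose libraries, and the log2 fold changes were -0.92 (SE 0.199), -0.91 (SE 0.246) and -0.79 (SE 0.142). Mycth_2312881 had 1.28 and 1.95 on glucose, 1.07 and 1.09 on starch, and 23.7 and 22.2 without carbon. Its log2 fold change of -0.81 (SE 0.286) lost the call with library totals alone, at -0.61, and without glucose replicate 2, at -0.45. The log2 fold change of Mycth_103797 was -0.84 (SE 0.283) and lost the call without glucose replicate 2, at -0.73, and without starch replicate 1, at -0.66.

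Gene order was not part of the choice. Of the 105 members placed in the RefSeq assembly, 18 (17.1%) had another member as the next gene, forming 9 pairs, while 2.24% of all genes in that assembly stood beside a member. No chance test was made on these numbers. No run held more than 2 members. The gene spans of the 9 pairs did not overlap, although reads running past the end of one gene into the next were not examined.

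**Figure D4:**
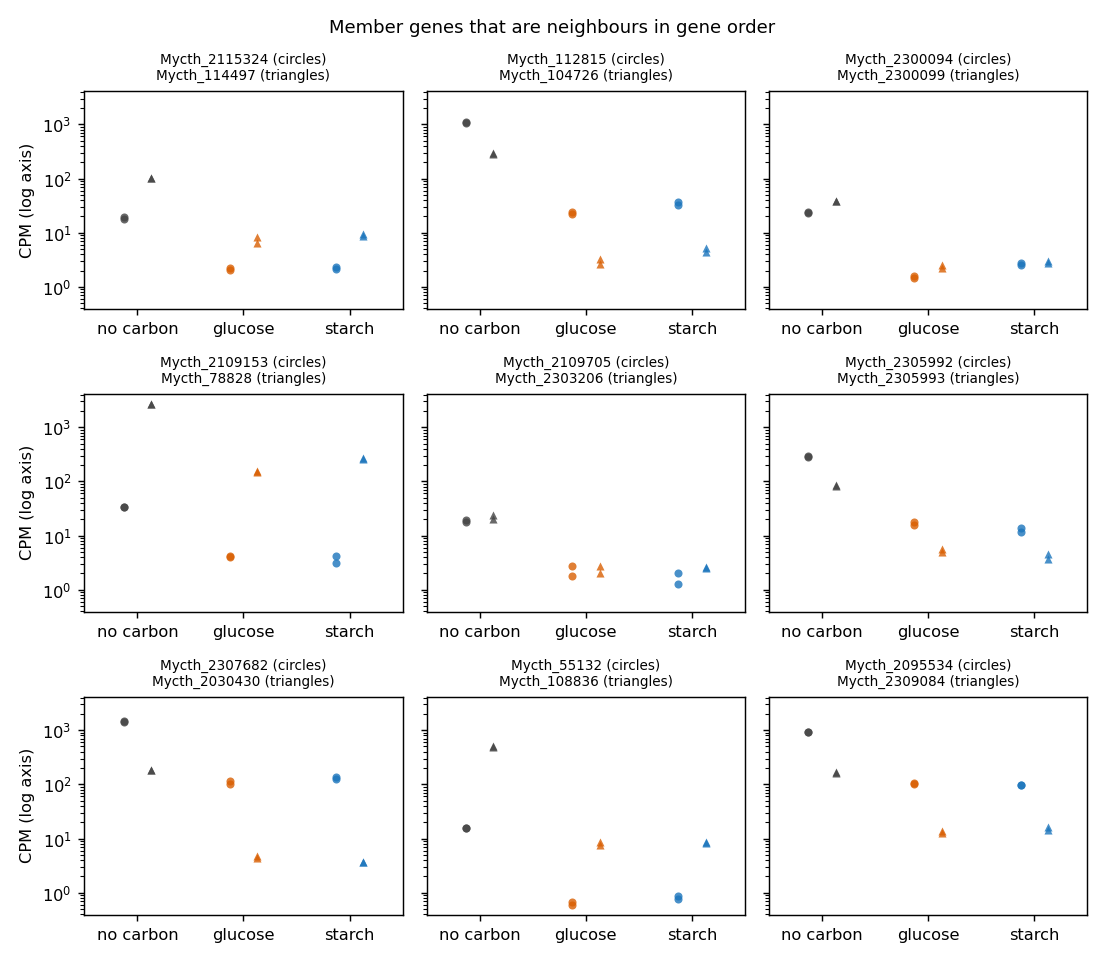
CPM (log axis) of both genes of the 9 pairs in each library, with the first gene as circles and its neighbour as triangles. Both genes of every pair are lower on both sugars by the rule, while their levels without carbon differ in most pairs.

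Within pairs the levels were often far apart. Per length, the ratio of the higher to the lower gene without carbon ran from 1.08 to 119, and it exceeded 2 in 7 pairs. The widest difference was that of Mycth_55132, with 7188 bases the longest member, and Mycth_108836. Mycth_55132 had 15.7 CPM in both no carbon libraries, 0.664 and 0.592 on glucose, and 0.754 and 0.871 on starch, equal to 2.18 RPKM without carbon against 258.8 RPKM for its neighbour. Mycth_78828 stood beside Mycth_2109153, which had 33.9 and 33.3 CPM without carbon, 3.98 and 4.15 on glucose and, on starch, 3.11 and 4.14. The most abundant member thus stood next to one whose level without carbon was under the median of the set.

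Other pairs were closer in level. Mycth_2300094 had 23.1 and 23.9 CPM without carbon, 1.43 and 1.61 on glucose and, on starch, 2.53 and 2.79. Its neighbour Mycth_2300099 had 38.5 and 38.6, 2.25 and 2.54, and 2.8 and 2.96 CPM, and per length the levels without carbon differed only 1.08-fold. Mycth_2109705 and Mycth_2303206 formed a second such pair, with 19.6 and 17.8 against 23.7 and 20.3 CPM without carbon. All 4 of these genes lay under the median of the set without carbon.

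Mycth_112815 and Mycth_104726, both strongly reduced on sugar, were neighbours and were both called higher on starch. Mycth_2305992 and Mycth_2305993 were neighbours and were both called lower on starch. Mycth_2305992 had 294.3 and 283.4 CPM without carbon, 15.9 and 18.2 on glucose and, on starch, 11.9 and 14. Mycth_2305993 had 82.4 and 84.9, 5 and 5.67, and 3.73 and 4.66 CPM. In these 2 pairs the difference between the sugars had the same direction in both genes, in 5 pairs only 1 gene was called, and in 2 neither was. By sign alone, whether called or not, 5 of the 9 pairs held genes with opposite directions. Mycth_78828 was higher on starch, as given above, and its neighbour Mycth_2109153 had a log2 fold change of -0.37 (SE 0.171) without a call. Mycth_2030430 was called lower at -0.52 (SE 0.147), and its neighbour Mycth_2307682 had 0.06 (SE 0.033) without a call.

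The last pairs joined Mycth_2307682 with Mycth_2030430, Mycth_2095534 with Mycth_2309084, and Mycth_2115324 with Mycth_114497. Mycth_2030430 had 181.8 and 181.3 CPM without carbon, 4.39 and 4.74 on glucose and, on starch, 3.64 and 3.74, a larger reduction than in its neighbour. Mycth_2309084 had 168 and 162.9, 12.5 and 13.7, and 14.5 and 16.2 CPM. Mycth_2115324 had 17.6 and 19.4, 2.04 and 2.2, and 2.17 and 2.35 CPM, and Mycth_114497 had 102.4 and 100.9, 8.32 and 6.52, and 9.63 and 8.71 CPM.

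The members were shorter than the table as a whole. The median member had 1213 bases, the median of all genes was 1541 and that of the 6767 genes with at least 10 CPM without carbon was 1692. The other genes at least 8-fold above both sugars were similarly short, with medians of 1220 bases in the 21 with starch at least 2 times glucose and 1254 bases in the 9 with glucose at least 2 times starch. Among the shortest 25% of all genes (up to 1000 bases), 3.31% of those that reached 10 CPM without carbon belonged to the set. In the next length classes the share was 1.62% and 1.55%, and it was 0.502% among the longest 25% (over 2203 bases). The shortest members were Mycth_39013 (261 bases), Mycth_2299868 (365 bases) and Mycth_2114023 (438 bases), with 72.2, 29.4 and 24.6 RPKM without carbon. When a smooth trend with length was taken out of each library, 79 genes met the rule, 72 of them among the 106.

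**Figure D5:**
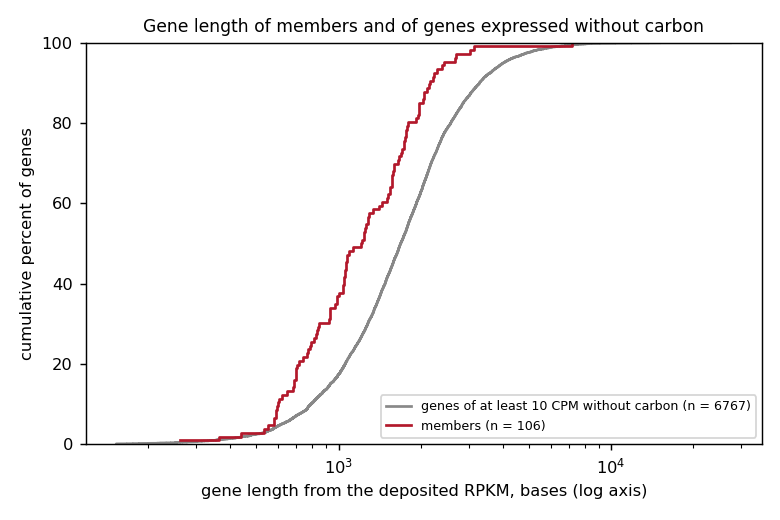
Cumulative percent of genes against gene length (log axis) for the 106 members and for the 6767 genes with at least 10 CPM without carbon. The curve of the members lies mostly to the left, with medians of 1213 and 1692 bases.

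Replicate spread was widest in the rarest members. Without carbon the largest ratio between replicate libraries was 1.36 (Mycth_2308164, at 10.9 and 14.8 CPM), and no member exceeded 1.5. On glucose 12 members exceeded 1.5, with Mycth_2133403 the widest at 0.408 and 1.19 CPM, followed by Mycth_78093. On starch 10 did so, among them Mycth_2299868 at 0.444 and 1.13 CPM, Mycth_2299915 at 0.311 and 0.783 CPM and Mycth_2113081 at 0.621 and 1.26 CPM. In each of these genes the sugar values remained far below those without carbon. Besides Mycth_2306248, the spans of Mycth_2305399, Mycth_2307827 and Mycth_2308185 overlap a neighbouring gene in the assembly, so their counts carry the same uncertainty.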

How the data were processed

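The authors deposited raw read counts and RPKM values for 9110 genes in 6 libraries. TopHat2 2.0.8b and HTSeq 0.5.4p2 are the tools listed, per the submitters' processing notes. For settings, build, annotation and strand, the value is not given in the sources used here, and near-identical genes may share reads. Deposited RPKM equalled the count divided by library total and gene length, so lengths were taken from it (100% whole within 0.001 bases). IDs were matched to locus tags of RefSeq assembly ASM22609v1, used for symbols, gene order and overlap only (9087 matched).

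CPM by library totals defined membership. Counts of all genes were fitted with edgeR 4.0.16 in R 4.3.3 (filterByExpr, TMM, estimateDisp, robust glmQLFit and glmQLFTest, no covariates), leaving 8718 tested genes and 3 residual degrees of freedom, and tested on simulated data. Each SE was computed as the absolute log2 change over the root of its F statistic, which can be too small for large changes on few reads. Calls measure the spread of these 6 libraries alone, and that spread may be purely technical. Members and lists were chosen with earlier results of these data known. Named genes were those with the highest CPM, RPKM, ratios, lengths or replicate ratios, those nearest each limit, and neighbours. Alternatives covered DESeq2 1.42.0, scaling, filters, thresholds, each library left out and the replicate block; removal of the length trend (loess per library) was added after seeing the data. Protein and promoter sequences were not used here, so planned sequence features were left out. Word lists on product text had no text to act on.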

Additional observations from a re-analysis of the deposited data

How the results depend on the processing

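Of 106 recomputed counts and medians over the set, 95 stayed within 1.5 times the main count or within the spread between replicates, and no direction turned. The tally includes the calls of all members as lower on each sugar, which the rule fixed in every setting. The rule also fixed the sign of the medians against no carbon, so the tally is no measure of robustness. Membership was set mainly by its fold limit, with 348 genes at 4-fold (all 106 among them) and 35 at 16-fold. It was 95 genes with TMM scaling (93 shared), 98 with RLE factors (94 shared), 123 at a minimum of 5 CPM, 77 at 20 CPM and 73 with a window of 1.5-fold. Leaving out each library gave 98 to 108 genes, of which 98 to 102 were shared. With library totals alone, 48 members were called higher on starch than on glucose and 11 lower, against 55.2% and 19.5% of all tested genes. The median log2 fold change of the members there was 0.34 for starch against glucose and -3.99 for glucose against no carbon. The latter was -3.52 with the length trend removed and -3.81 to -3.74 with each library left out. In the test against 2-fold (edgeR's glmTreat), 0 members came out higher on starch and 0 lower, also at an unadjusted p under 0.05. This follows from the rule, which admits only sugar means within 2-fold. DESeq2, without a minimum size, called 21 members higher on starch and 18 lower. Over all 9110 genes it called 2464 higher and 2625 lower. With each library left out, the median log2 fold change of the members from glucose to starch was 0.09 to 0.14.

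Fitting the replicate number as a replicate block left the calls at 27 higher and 19 lower on starch and at 106 lower on each sugar than without carbon. Same-numbered libraries did not deviate together (correlations of 0, -0.04 and -0.02 across genes), so the numbers are not taken as pairs. Counting neighbours with at most 1 gene between them gave 22 members instead of 18. A hydrophobic N-terminus of the proteins, with its settings, was not run because protein sequences were not used here. The 60 members without a call between the sugars had a median of 152 reads over 4 libraries, but 21 of them had at least 300 reads, and the part of depth in the missing calls was not tested.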

Other observations

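The 9 genes that were at least 8-fold lower on both sugars but with glucose at least 2 times starch lay mostly together. In RefSeq gene order 8 of them stood next to each other, from Mycth_50128 through Mycth_115957, Mycth_2303701, Mycth_2303702, Mycth_2138881, Mycth_2303707 and Mycth_81364 to Mycth_2303709. Their means ran from 161 to 1434 CPM without carbon, from 1.07 to 12.4 CPM on glucose and from 0.198 to 1.43 CPM on starch. Their summed counts were 94813 and 74365 in the no carbon libraries, 908 and 1032 in the glucose libraries, and 127 and 140 in the starch libraries. It was the longest run of neighbours at least 8-fold above both sugars with at least 1 CPM without carbon, and 0 of the 106 members belonged to it. The run was noticed after the values were seen and was not tested. The ninth gene, Mycth_48716, reached 634.6 and 615.1 CPM in the no carbon libraries, 6.07 and 5.75 with glucose, and 0.133 and 0.0435 with starch, and stood beside a member, Mycth_107763. In that member the values were 25 CPM on starch and 26.3 CPM on glucose, against 422.5 CPM without carbon, so the starch values of these neighbours differed widely.

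Beside members stood 9 further genes that were at least 8-fold above both sugars but under its minimum level, at 3.29 to 8.36 CPM without carbon. In 5 of these 9 the sugars also differed by more than the rule's 2-fold window. Counted from 1 CPM without carbon, these 9 genes and Mycth_48716 made up 5.49% of the 182 non-member genes beside a member. Among all other non-members the share was 1.16%. With only genes of at least the rule's 10 CPM counted, 1 beside a member and 29 elsewhere, the shares were 0.549% and 0.329%. The difference thus rests mostly on genes under 10 CPM. All these shares are over non-members of any level, and 66.5% of those beside a member and 74.1% of the others reached 10 CPM. Mycth_2128361, next to Mycth_2111519, had 8.36 CPM without carbon, 0.157 on glucose and 0.55 on starch, outside that window. Within it were Mycth_2114022, at 8.05 CPM without carbon, 0.255 on glucose and 0.263 on starch, next to Mycth_2114023, and Mycth_2127280, at 5.43, 0.0933 and 0.0657 CPM, next to Mycth_2305442. These values rest on few reads on sugar, and reads shared with the stronger neighbour were not examined.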
